A study of Homo sapiens with 12 samples.

Results

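The genes described here belong to homologous recombination and the Fanconi anaemia pathway, and number 38 of the 23375 genes in at least 1 of the authors' 4 deposited comparison tables. They were taken by symbol from a fixed list, and all 38 were present with an adjusted p in each table. By role they fall into 14 mediators and strand-exchange factors, 5 resection factors, 6 dissolution and resolution factors and 13 genes of the Fanconi pathway. Polyadenylated RNA came from SUM159, an established line labelled as triple-negative breast cancer from a primary tumour. The 12 libraries form 4 groups of 3: control hairpin (shCTRL) untreated, shCTRL with gemcitabine, a hairpin against E4F1 (shE4F1) untreated, and shE4F1 with gemcitabine. E4F1 is a zinc finger transcription factor, and gemcitabine, a deoxycytidine analogue that blocks DNA synthesis, was given at 140 nM for 24 h. All groups thus carry a hairpin, all come from 1 cell line, and the labels do not say whether more than 1 hairpin was used for a target. Whether the 3 libraries of each group were grown as separate cultures is not in the labels, so the p-values measure only how these libraries vary, and that variation may be technical.

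Homologous recombination repairs double-strand breaks and collapsed replication forks by copying an intact sister chromatid. Break ends are first resected to single-stranded DNA, mediators such as BRCA2, PALB2 and XRCC3 then prepare this DNA for pairing with the sister, and joint molecules are dissolved or cut at the end. The Fanconi pathway detects interstrand crosslinks and stalled forks: a core complex with the E2 enzyme UBE2T attaches ubiquitin to FANCD2 and FANCI, which brings nucleases to the lesion and hands the break to recombination. Many of these genes are transcribed mainly in late G1 and S phase, and E2F factors are known regulators of a part of them.

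Promoter sequence bears on such shared regulation, so windows from 250 bases before to 50 after each start were read from RefSeq (GRCh38.p14). Of the 38 members 33 matched, with 45 windows; RAD54B, NBN, DNA2, RMI2 and FANCI had no match. An E2F-type word, GCGGGAA on either strand, was in the windows of 17 of 33 members (51.5%), against 7.82% of all 27305 genes with a window and 12.02% of the 11197 of these that were tested in the untreated knockdown table. The CRE-type word TGACGT, a part of the palindrome TGACGTCA bound by ATF and CREB factors among others, was in 9 of 33 (27.3%), against 9.64% and 13.5%. Binding of E4F1 to any of these words was not tested. CCAAT was in 14 of 33 (42.4%), against 39.7% and 43.4%, and the CHR-type word TTTGAA of G2/M promoters in 3 of 33 (9.09%), against 18.2% and 14.5%. These words were chosen with results of these data known, and a match is a description of the letters, not a bound site.

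The stretches below show the word or its reverse complement, in capitals, in 3 members with the E2F-type word and 3 with the CRE-type word, each read 5′ to 3′ on the gene's strand and lying outside annotated exons. They lie at chr1:46247617-46247667 (RAD54L, plus strand), chr15:90717250-90717300 (BLM, plus), chr9:95317726-95317776 (FANCC, minus), chr7:152676249-152676298 (XRCC2, minus), chr9:83980302-83980351 (RMI1, plus) and chr17:43125538-43125587 (BRCA1, minus), all GRCh38.p14. In XRCC2 the word runs into its own reverse complement, so the palindrome is whole there.
RAD54L: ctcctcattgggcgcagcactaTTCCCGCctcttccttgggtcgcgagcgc
BLM: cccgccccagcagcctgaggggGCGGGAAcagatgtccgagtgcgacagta
FANCC: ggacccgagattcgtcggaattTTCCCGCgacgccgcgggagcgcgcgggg
XRCC2: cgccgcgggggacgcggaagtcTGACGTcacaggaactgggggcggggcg
RMI1: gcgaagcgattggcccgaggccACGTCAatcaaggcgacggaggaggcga
BRCA1: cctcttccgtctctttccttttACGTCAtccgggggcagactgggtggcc

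Each change is given as the authors' DESeq2 log2 fold change with its SE, and a gene is said to have risen or fallen at an adjusted p under 0.05. As far as the values show, these changes are moderated, that is, shrunk towards 0. Levels and differences derived from them carry that shrinkage, whose size was not tested. E4F1, the gene the hairpin targets, fell to 0.503 times the shCTRL level in untreated cells (-0.99 ± 0.26, adjusted p = 0.000778) and to 0.532 times under gemcitabine (-0.91 ± 0.16, adjusted p = 1.47e-07) in the authors' deposited tables. Of the markers of the line, the mesenchymal genes VIM and FN1 had mean normalized counts of 66531 and 175896 in the authors' deposited table of untreated cells, while of the luminal epithelial genes CDH1 had 5.34, KRT8 2674, KRT18 2330 and GATA3 402. The oestrogen receptor gene ESR1 was at 9.21 and ERBB2 at 2833 in that deposited table, and of other lineages the blood gene PTPRC was at 42.6 and the endothelial PECAM1 at 183. With the hairpin PTPRC fell (-2.21 ± 0.40 untreated, -3.00 ± 0.27 under gemcitabine), PECAM1 rose (1.40 ± 0.29 and 1.17 ± 0.20) and FN1 rose (2.1 ± 0.19 and 1.78 ± 0.27) in the authors' deposited tables. The 5 mesenchymal genes did not move together there. Untreated, FN1 and CD44 rose and VIM fell (-0.40), and under gemcitabine FN1, CD44 and ZEB1 rose and CDH2 fell (-0.23). Of the 4 luminal genes measured, GATA3 fell in both deposited tables. The 2 of 5 blood markers measured summed to 75.2 normalized counts in shCTRL and 19.9 in shE4F1 untreated cells, and the 2 of 4 endothelial markers to 105.5 and 270.5, as implied by the authors' deposited table. The other blood and endothelial markers were not analysed here in untreated cells, and the part of these markers in the members' results was not tested. The members' means in the same deposited table ran from 138.8 for RAD54B to 8414 for RAD50, with a median of 820.1, so none was a low-count gene. Values per library were not used, so group levels below are those implied by a deposited table's mean and its fold change, and whether single libraries overlap cannot be given.

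Per kilobase of exon (GENCODE 29, GRCh38), the level in the authors' deposited table of untreated cells was highest for the break-end complex genes NBN at 888 and RAD50 at 861 and for the resection factor RBBP8, which encodes CtIP, at 806 mean normalized counts per kb. The ubiquitin-conjugating gene UBE2T followed at 734 and FANCI at 493. The lowest levels per kb in that deposited table were those of the translocase gene RAD54B at 26.1, the nuclease scaffold gene SLX4 at 37.6, FANCC at 40.3, the mediator gene RAD51B at 41.1 and BRCA2 at 46.4. Of the 38 members 21 share some exon bases with another annotated gene, and whether counting used strand is not given in the sources used here. The shared part was over 10% on the same strand for RAD54B (59.1%, with FSBP) and RAD50 (79.7%, with AC116366.3), so their levels per kb depend on how reads of shared exons were assigned. On the opposite strand it was over 10% for 9 members. It was largest there for XRCC3, with 76.7% of exon bases shared with KLC1, followed by PSMC3IP with 29.9% shared with MLX. RAD54L shared 25.1% with LRRC41, FAN1 24.3% with MTMR10, FANCA 23.6% with ZNF276, and FANCL 19.7% with AC007250.1 and VRK2. EME1 shared 16.4% with LRRC59, MUS81 shared 14.1% with CFL1 and EFEMP2, and FANCF shared 11.3% with GAS2. With the hairpin in untreated cells LRRC41 (-0.40 ± 0.14) and VRK2 (-0.70 ± 0.15) fell and ZNF276 rose (0.73 ± 0.17). MTMR10 was at -0.14 ± 0.15 there and did not pass. In the authors' deposited table of untreated cells LRRC59 had a mean of 15394 and CFL1 of 21080, against 743 for EME1 and 1165 for MUS81. Whether reads of overlapping genes entered the members' counts was not tested.

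The first comparison asks how the members stood in shE4F1 relative to shCTRL cells without drug. Most of the machinery was lower: 26 of 38 members fell and none rose in the authors' deposited table, where 19.3% of 19472 genes tested fell and 17.5% rose. The members' median log2 change was -0.89, against -0.01 over all genes tested, and 17 members fell by at least 1 (log2). The share of all genes that fell by that size was not computed, so whether 17 is many is unknown. No member was higher at an unadjusted p under 0.05 either (0 of 38, the authors' DESeq2). By role, 12 of 14 mediators, 2 of 5 resection factors, 5 of 6 resolution factors and 7 of 13 Fanconi genes fell. DNA replication genes were also lower (33 of 38 fell, none rose, median -1.09), as were G2/M genes (24 of 30 fell, none rose, median -0.66); their part in the result was not tested. In RNA from a whole culture, fewer cells in S phase and less RNA per cell cannot be told apart.

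**Figure D1:**
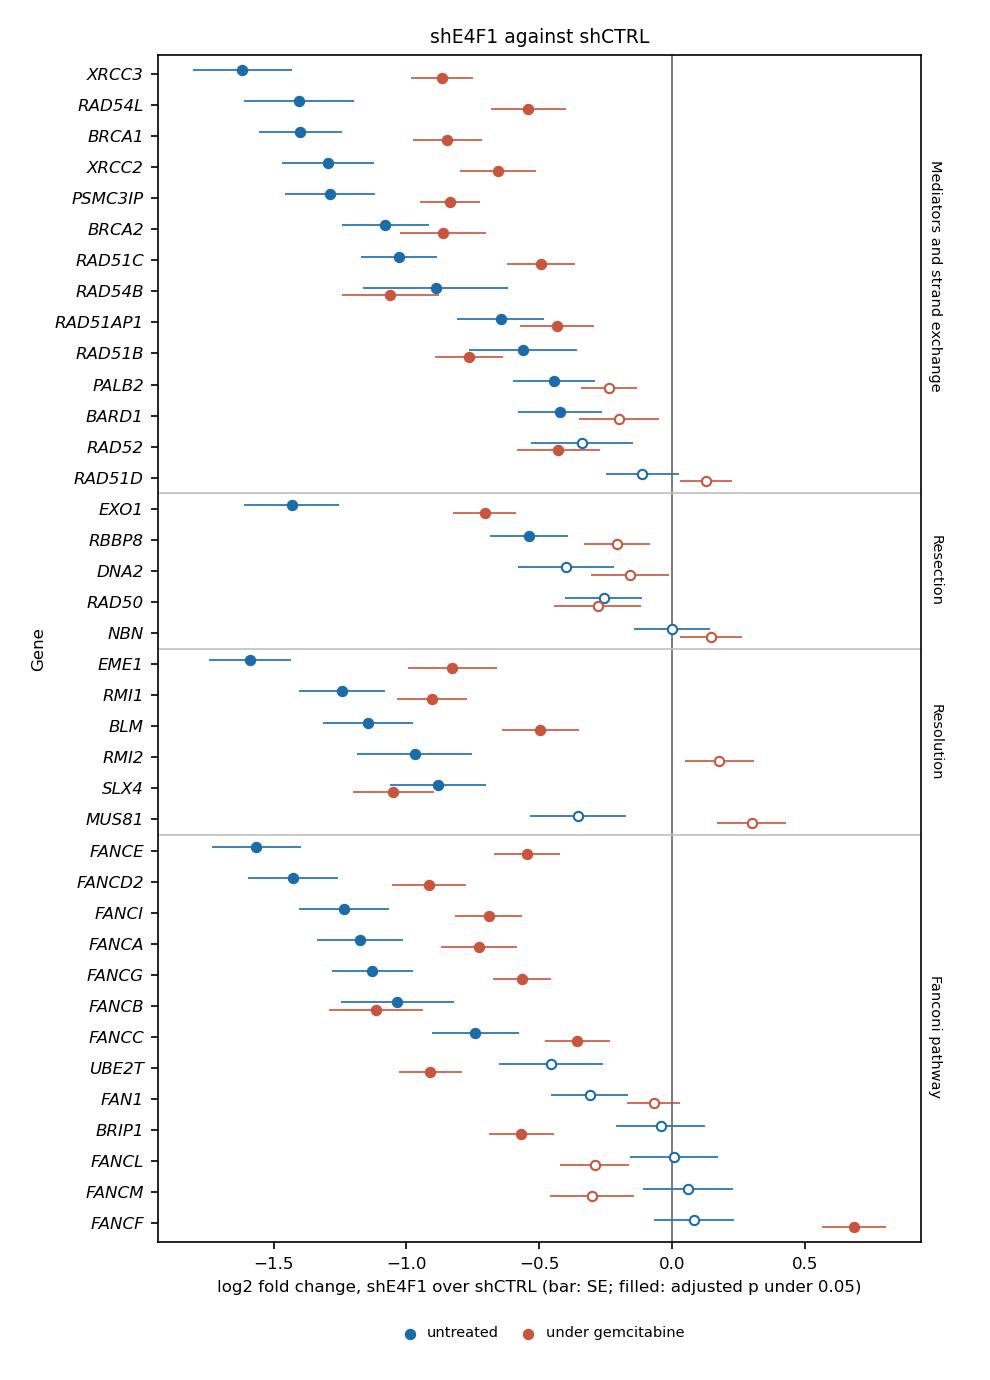
log2 fold change of each member in shE4F1 over shCTRL cells (x axis; rows are genes, grouped by role), untreated in blue and under gemcitabine in red; bars are the SE and filled points have an adjusted p under 0.05. Filled blue points, 26 in all, lie left of 0, and FANCF under gemcitabine (0.68) is the filled point right of 0.

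Among the mediators, XRCC3, which acts in a complex with RAD51C, fell from an implied 557 to 182 normalized counts in the authors' deposited table (-1.62 ± 0.19, 0.326 times the control, adjusted p = 1.58e-16). KLC1, which shares exon bases with XRCC3 on the other strand, was at -0.06 ± 0.20 in the authors' deposited table. In other deposited tables KLC1 did change: it rose with the hairpin under gemcitabine (0.44 ± 0.13) and fell with gemcitabine in shCTRL cells (-0.77 ± 0.19). XRCC3 went the other way in both, and the part of the overlap in its values was not tested. BRCA1, the ubiquitin ligase that promotes resection and recruits PALB2, fell from 3447 to 1306 (-1.40 ± 0.16, adjusted p = 2.49e-17) in the authors' deposited table. The chromatin translocase gene RAD54L was at -1.40 ± 0.21, XRCC2 at -1.29 ± 0.17, PSMC3IP (HOP2, a cofactor of strand exchange) at -1.29 ± 0.17, BRCA2 at -1.08 ± 0.16 and RAD51C at -1.03 ± 0.14 in the authors' deposited table, all of them falls. The remaining falls of this role in that deposited table were smaller: RAD54B at -0.89 ± 0.27, RAD51AP1, which stimulates strand pairing, at -0.65 ± 0.16, RAD51B at -0.56 ± 0.20, and PALB2, the link between BRCA1 and BRCA2, at -0.44 ± 0.15. BARD1, the obligate partner of BRCA1, had the smallest (-0.42 ± 0.16, adjusted p = 0.0243), against -1.40 for BRCA1 in the same deposited table. RAD51D (-0.11 ± 0.14) and the annealing factor gene RAD52 (-0.34 ± 0.19) did not pass the test in the authors' deposited table. Within the complex of RAD51B, RAD51C, RAD51D and XRCC2, the deposited changes thus ran from -1.29 to -0.11.

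In resection, the long-range exonuclease gene EXO1 fell from 1098 to 407 normalized counts in the authors' deposited table (-1.43 ± 0.18, adjusted p = 3.32e-14). RBBP8, which starts resection with the MRN complex, fell less (-0.54 ± 0.15, adjusted p = 0.00117) in that deposited table. The alternative long-range nuclease-helicase gene DNA2 was at -0.40 ± 0.18, RAD50 at -0.26 ± 0.15 and NBN at 0.00 ± 0.14 in the authors' deposited table, none of which passed. The 95% interval for NBN, -0.28 to 0.28 in log2, leaves out a change of the size of EXO1.

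Among genes that process joint molecules, EME1, the partner that makes MUS81 an active nuclease, fell from 1116 to 371 normalized counts in the authors' deposited table (-1.59 ± 0.15, 0.332 times the control, adjusted p = 1.11e-22). MUS81 itself was at -0.36 ± 0.18 (adjusted p = 0.111) in that deposited table, and the difference between the partners was not tested. Of the genes overlapping them on the other strand, LRRC59 (with EME1) fell (-0.57 ± 0.14) and CFL1 (with MUS81) was at 0.06 ± 0.17 in the same deposited table. The 3 members that belong to the dissolvasome, the helicase BLM (-1.15 ± 0.17) and its partners RMI1 (-1.24 ± 0.16) and RMI2 (-0.97 ± 0.22), all fell in the authors' deposited table. TOP3A, the topoisomerase gene of this complex and not a member here, also fell (-0.46 ± 0.16) in that deposited table. SLX4, the scaffold for structure-selective nucleases, had the smallest fall of this role (-0.88 ± 0.18, adjusted p = 8.50e-06) in the authors' deposited table.

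In the Fanconi pathway, FANCE, the core subunit that contacts FANCD2, fell from 1053 to 356 normalized counts in the authors' deposited table (-1.57 ± 0.17, 0.338 times the control, adjusted p = 4.08e-19). Both substrates of the core complex fell in that deposited table, FANCD2 by 1.43 ± 0.17 and FANCI by 1.23 ± 0.17. Core subunits FANCA (-1.17 ± 0.16), FANCG (-1.13 ± 0.15) and FANCB (-1.03 ± 0.21) also fell in the authors' deposited table, and FANCC had the smallest fall (-0.74 ± 0.16, adjusted p = 4.30e-05). The catalytic pair did not pass: the ligase gene FANCL was at 0.01 ± 0.17 and UBE2T at -0.46 ± 0.20 (adjusted p = 0.0531), both from the authors' deposited table. Neither did FANCF (0.08 ± 0.15), the anchor translocase gene FANCM (0.06 ± 0.17), the helicase gene BRIP1 (-0.04 ± 0.17) or the nuclease gene FAN1 (-0.31 ± 0.14) in the authors' deposited table. Across the subunits of the core complex the changes in that deposited table thus ran from -1.57 for FANCE to 0.08 for FANCF.

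The second comparison sets shE4F1 against shCTRL cells that both received gemcitabine. Of 38 members 25 fell and 1 rose in the authors' deposited table, where 20.8% of 22433 genes tested fell and 20.3% rose. The median log2 change of the members was -0.54, and 3 fell by at least 1, a size for which the share of all genes was not computed. By role, 11 of 14 mediators, 1 of 5 resection factors, 4 of 6 resolution factors and 9 of 13 Fanconi genes fell, and 1 Fanconi gene rose. DNA replication genes fell in 34 of 38 cases (median -0.69) and G2/M genes in 19 of 30, with 1 higher (median -0.38); their part in the result was not tested.

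The largest falls under drug were those of FANCB, RAD54B and SLX4. FANCB, the subunit that forms the catalytic module with FANCL, fell from 728 to 336 normalized counts in the authors' deposited table (-1.12 ± 0.18, adjusted p = 2.00e-09). RAD54B, the paralog of RAD54L, was at -1.06 ± 0.18 (adjusted p = 5.93e-08) and SLX4 at -1.05 ± 0.15 (adjusted p = 9.44e-11), both from the authors' deposited table. EXO1 was the resection gene that fell (-0.71 ± 0.12, adjusted p = 1.68e-08) in that deposited table, from 3015 to 1849 normalized counts. FANCF, a core subunit encoded by a single exon, rose from 690 to 1109 (0.68 ± 0.12, adjusted p = 1.08e-07) in the authors' deposited table.

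From several roles, 12 more falls left 0.53 to 0.64 times the control level in the authors' deposited table: FANCD2 (-0.92 ± 0.14), UBE2T (-0.91 ± 0.12), RMI1 (-0.90 ± 0.13), XRCC3 (-0.87 ± 0.12), BRCA2 (-0.86 ± 0.16), BRCA1 (-0.85 ± 0.13), PSMC3IP (-0.84 ± 0.11), EME1 (-0.83 ± 0.17), RAD51B (-0.76 ± 0.13), FANCA (-0.73 ± 0.14), FANCI (-0.69 ± 0.13) and XRCC2 (-0.66 ± 0.14). BRIP1, the helicase that binds the BRCT repeats of BRCA1, fell by 0.57 ± 0.12, as did FANCG (-0.57 ± 0.11), FANCE (-0.55 ± 0.12) and RAD54L (-0.54 ± 0.14) in the authors' deposited table. The smallest falls in that deposited table were BLM at -0.50 ± 0.15, RAD51C at -0.49 ± 0.13, RAD51AP1 at -0.43 ± 0.14, RAD52 at -0.43 ± 0.16 (adjusted p = 0.0165) and FANCC at -0.36 ± 0.12 (adjusted p = 0.0107). The genes that did not pass in the authors' deposited table ran from FANCM (-0.30 ± 0.16), FANCL (-0.29 ± 0.13), RAD50 (-0.28 ± 0.16), PALB2 (-0.24 ± 0.10) and RBBP8 (-0.21 ± 0.12) to MUS81 at 0.30 ± 0.13. CFL1, which overlaps MUS81, rose (0.34 ± 0.10), and LRRC59, which overlaps EME1, fell (-0.44 ± 0.09) in the same deposited table. Computed instead from the deposited tables that share the shCTRL untreated libraries, whose summed SE is too large, 16 members fell.

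Both knockdown tables share no library, so their members can be set against each other. Of the members 22 fell in both, which is 84.6% of the 26 that fell untreated and 88.0% of the 25 that fell under gemcitabine. Neither this overlap nor the correlation below was computed over all genes. Whether they are particular to the members is therefore unknown. BARD1, PALB2, RBBP8 and RMI2 passed without drug and not with it, and RAD52, UBE2T and BRIP1 passed with drug and not without; a change of side is no test of a difference. The 9 that fell in neither were RAD51D, NBN, RAD50, DNA2, MUS81, FANCF, FANCL, FANCM and FAN1. Over the 38 members the deposited changes of both tables had a Pearson r of 0.651 and a Spearman rho of 0.641, given as a description across genes, which share libraries within a table and are not replicates.

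The third question is whether the knockdown effect differed with drug, tested as the change under gemcitabine minus that in untreated cells, derived from the authors' deposited tables. For 28 of 38 members this difference was above 0, and its median was 0.33, against 0.04 over all 20923 genes tested. The other lists were shifted in the same direction: the median was 0.33 for G2/M genes (24 of 30 above 0, 1 passed), 0.23 for DNA replication genes (26 of 38 above 0, 6 passed) and 0.19 for end-joining genes (13 of 16 above 0, none passed, and 1 upward at an unadjusted p under 0.05). It passed in 8 members, all with a less negative or more positive effect under drug, and in none with a more negative one, while 2.81% of all genes passed upward and 2.63% downward. At an unadjusted p under 0.05 the normal test gave 2 members with a more negative effect, BRIP1 and UBE2T. RMI2, which stabilizes the BLM complex, had the largest difference (1.15 ± 0.25, adjusted p = 0.000507, normal test with Benjamini-Hochberg adjustment): it fell by 0.97 without drug and stood at 0.18 ± 0.13 with it in the authors' deposited tables. For FANCE the difference was 1.02 ± 0.21 (adjusted p = 0.000129, same test), from -1.57 to -0.55 in the authors' deposited tables. The other differences that passed were RAD54L at 0.86 ± 0.25, EME1 at 0.76 ± 0.23, XRCC3 at 0.75 ± 0.22, EXO1 at 0.73 ± 0.21, FANCF at 0.60 ± 0.19 and FANCG at 0.56 ± 0.19, with adjusted p from 0.0158 to 0.0474. For KLC1, which shares exon bases with XRCC3, the difference was 0.49 ± 0.23 and did not pass. For LRRC41, which shares them with RAD54L, it was 0.28 ± 0.18 and did not pass either.

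Among differences that did not pass, the smallest adjusted p were those of MUS81 at 0.66 ± 0.22 (adjusted p = 0.0553), BLM at 0.65 ± 0.22 (0.0620), XRCC2 at 0.64 ± 0.22 (0.0698), RAD51C at 0.53 ± 0.19 (0.0776) and BRCA1 at 0.55 ± 0.20 (0.0886), all derived from the authors' deposited tables by the normal test with Benjamini-Hochberg adjustment. With p adjusted over genes whose mean was at least 50, MUS81, BLM and XRCC2 passed as well. On the other side BRIP1 had the lowest value (-0.52 ± 0.21, 95% interval -0.93 to -0.12, adjusted p = 0.125), followed by UBE2T at -0.45 ± 0.23. For BRCA2 the difference was 0.22 ± 0.23 with an interval of -0.23 to 0.67, and for FANCB -0.08 ± 0.28 with -0.62 to 0.46, neither of which passed (adjusted p = 0.738 and 0.944). Built from the tables that share controls, with the larger summed SE, the difference passed in 1 member, FANCE. It passed in 6 members after the deposited tables were centred on their median, with FANCF and FANCG no longer called.

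**Figure D2:**
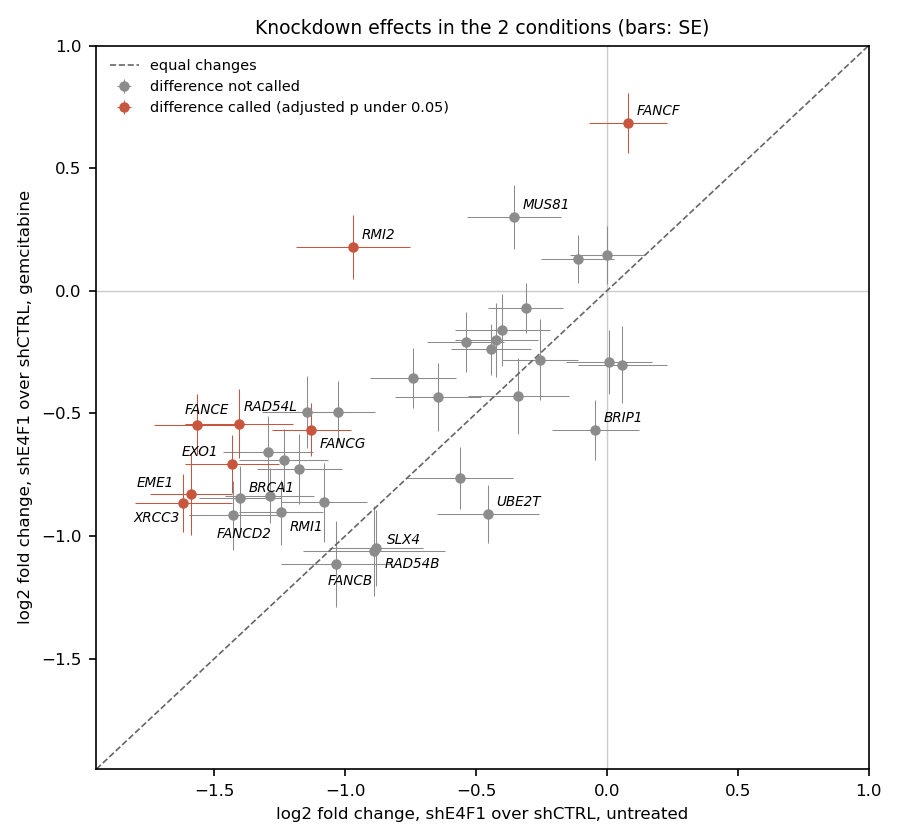
log2 fold change of each member, shE4F1 over shCTRL, in untreated cells (x axis) and under gemcitabine (y axis); bars are SEs, the dashed line marks equal changes and red points are the 8 members whose difference passed the test. The red points lie above the dashed line, with RMI2 and FANCF farthest to the top, and 28 of 38 points lie above it.

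The fourth comparison describes gemcitabine in shCTRL cells. With gemcitabine 17 of 38 members rose and 3 fell in the authors' deposited table, where 14.5% of 20002 genes tested rose and 13.5% fell. The members' median was 0.41, against -0.02 over all genes tested, and 7 members rose by at least 1. For rises of that size the share of all genes was not computed. Mediators rose in 9 of 14 cases and none fell; 2 of 5 resection factors rose; 1 of 6 resolution factors rose and 1 fell; 5 of 13 Fanconi genes rose and 2 fell. Of 38 DNA replication genes 26 rose and 2 fell (median 0.76), while of 30 G2/M genes 12 fell and 1 rose (median -0.23); their part in the result was not tested.

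PSMC3IP rose most, from an implied 1652 to 4792 normalized counts in the authors' deposited table (1.54 ± 0.17, 2.90 times, adjusted p = 5.78e-17). MLX, which shares exon bases with it on the other strand, fell by 0.42 ± 0.14 in the authors' deposited table. BRIP1 rose from 1158 to 2999 (1.37 ± 0.16, 2.59 times, adjusted p = 2.66e-15) and FANCB from 288 to 730 (1.34 ± 0.20, adjusted p = 4.52e-10) in the authors' deposited table. EXO1 rose by 1.21 ± 0.17, BRCA2 by 1.19 ± 0.17, XRCC3 by 1.09 ± 0.16 and UBE2T by 1.05 ± 0.20 in that deposited table. Each point estimate was above a doubling, but the 95% intervals began below 1 (log2), at 0.87, 0.85, 0.77 and 0.65 in the same order. Smaller rises in the authors' deposited table were those of RAD54B (0.94 ± 0.26), RAD51AP1 (0.79 ± 0.19), BRCA1 (0.78 ± 0.18), FANCM (0.69 ± 0.18), RAD51B (0.65 ± 0.18), EME1 (0.65 ± 0.16, adjusted p = 0.000436), BARD1 (0.56 ± 0.18), XRCC2 (0.53 ± 0.17, adjusted p = 0.0118), FANCL (0.52 ± 0.18, adjusted p = 0.0165) and DNA2 (0.48 ± 0.19, adjusted p = 0.0478), which no longer passed when p was adjusted over all genes without a filter on low means.

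The 3 falls were in FANCE, from 1215 to 750 normalized counts (-0.70 ± 0.15, adjusted p = 3.04e-05), MUS81, from 1500 to 982 (-0.61 ± 0.18, adjusted p = 0.00324), and FANCF, from 979 to 698 (-0.49 ± 0.15, adjusted p = 0.00710), in the authors' deposited table. EME1 rose and its partner MUS81 fell in the same libraries, and the core subunits FANCB and FANCE likewise moved apart. CFL1, which shares exon bases with MUS81 on the other strand, also fell (-0.53 ± 0.18) in that deposited table. LRRC59, which shares them with EME1, was at 0.04 ± 0.14 there. The part of this overlap in the changes of MUS81 and EME1 was not tested. Just short of the threshold in the authors' deposited table were RAD54L (0.51 ± 0.21, adjusted p = 0.0508) and FANCI (0.45 ± 0.18, adjusted p = 0.0521). FANCD2 (0.25 ± 0.19), RAD51C (0.05 ± 0.15) and the MRN genes RAD50 (-0.10 ± 0.16) and NBN (-0.23 ± 0.15) did not pass in the authors' deposited table. In all 18 members did not pass, from NBN to RAD54L.

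**Figure D3:**
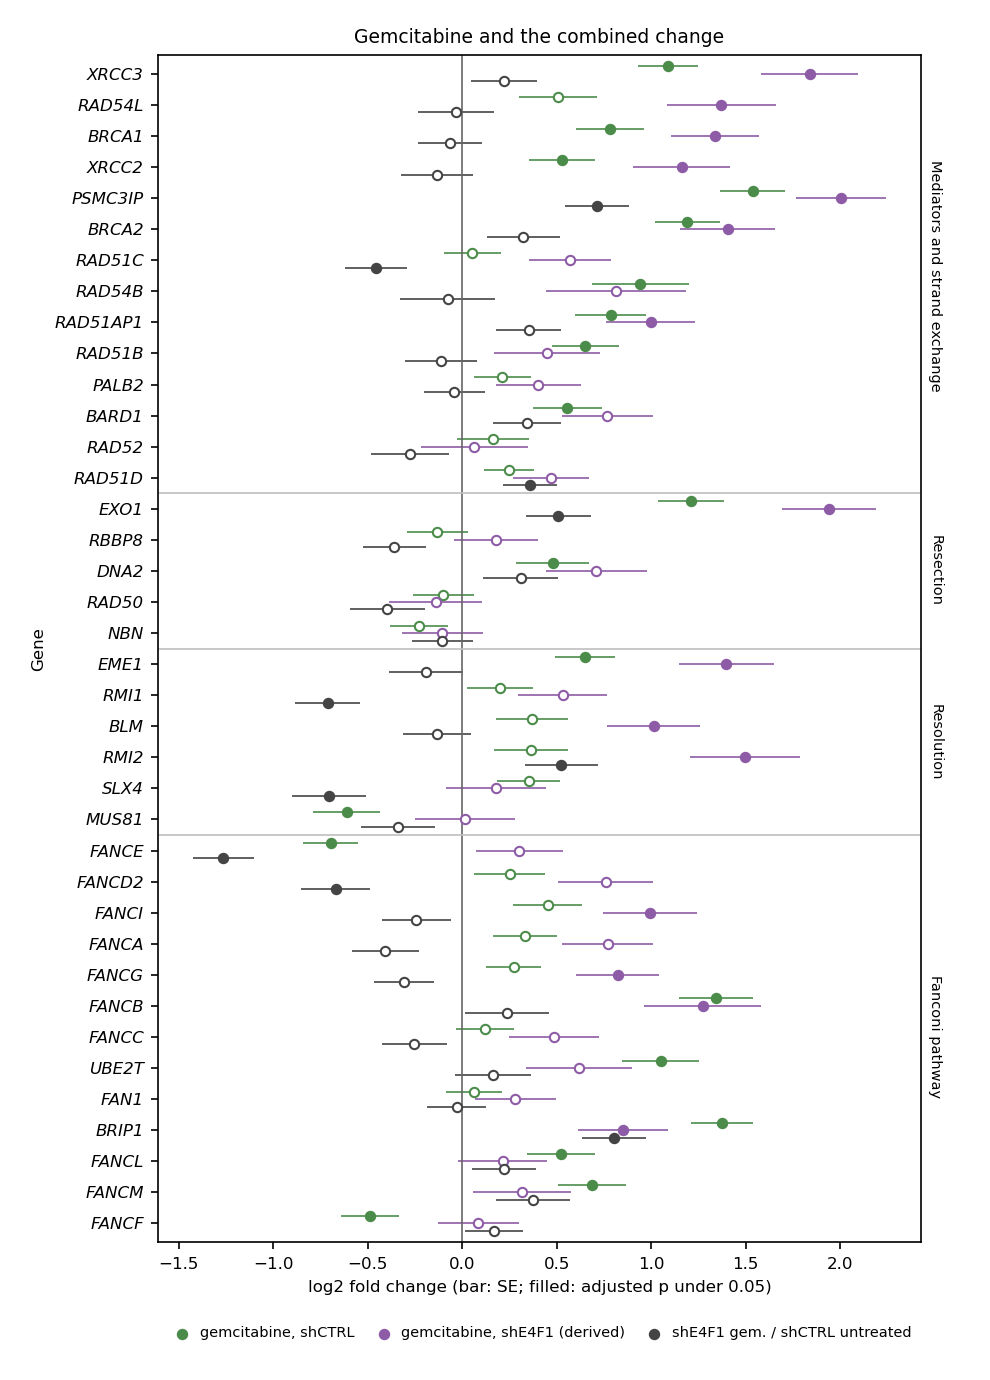
log2 fold change of each member (x axis; rows are genes, grouped by role) for gemcitabine over untreated in shCTRL cells (green), the derived gemcitabine change in shE4F1 cells (purple) and shE4F1 with gemcitabine over shCTRL untreated (grey); bars are SEs and filled points have an adjusted p under 0.05. PSMC3IP reaches 1.54 in green and 2.00 in purple, and the grey points centre near 0 (median -0.07).

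In shE4F1 cells the gemcitabine change was derived as a difference of the authors' deposited tables, with an SE that counts the shCTRL untreated libraries more than once and is too large. With that SE 15 members rose and none fell, against 0.925% and 0.185% of 21080 genes, and the median was 0.73. No member was lower at an unadjusted p under 0.05 by the normal test (0 of 38). Of the DNA replication genes 22 of 38 rose and none fell (median 1.00), and of the G2/M genes 3 of 30 fell and none rose (median -0.01), with 5 higher at an unadjusted p under 0.05; their part in the result was not tested. The role counts of rises were 7 mediators, 1 resection factor, 3 resolution factors and 4 Fanconi genes. PSMC3IP rose by 2.00 ± 0.24 (adjusted p = 2.34e-13), EXO1 by 1.94 ± 0.25 (adjusted p = 1.04e-11), RMI2 by 1.49 ± 0.29 (adjusted p = 9.63e-05) and FANCB by 1.27 ± 0.31 (adjusted p = 0.00603) in this difference, by the normal test with Benjamini-Hochberg adjustment. The smallest rises of their roles were RAD51AP1 at 1.00 ± 0.24, BLM at 1.01 ± 0.25 and FANCG at 0.82 ± 0.22. XRCC3 rose by 1.84, EME1 by 1.40, BRCA2 by 1.40, RAD54L by 1.37 and BRCA1 by 1.34, and FANCE was at 0.30 ± 0.23. With the shared variance removed from the SE, a choice made after the data were seen, 28 members rose and none fell, against 7.15% of 20465 genes that rose.

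The remaining deposited table sets shE4F1 cells with gemcitabine against shCTRL cells without it. Here 5 members fell and 5 rose, where 16.3% of 19724 genes tested fell and 15.8% rose, and the members' median was -0.07 in the authors' deposited table. The falls in that deposited table were FANCE from 1128 to 470 normalized counts (-1.26 ± 0.16, adjusted p = 1.29e-13), RMI1 (-0.71 ± 0.17), SLX4 (-0.70 ± 0.20), FANCD2 (-0.67 ± 0.18) and RAD51C (-0.46 ± 0.16, adjusted p = 0.0202). The rises were BRIP1 from 1059 to 1850 (0.80 ± 0.17, adjusted p = 2.14e-05), PSMC3IP (0.71 ± 0.17), RMI2 (0.52 ± 0.19), EXO1 (0.51 ± 0.17, adjusted p = 0.0122) and RAD51D (0.36 ± 0.14, adjusted p = 0.0417) in the authors' deposited table. At an adjusted p under 0.01, and also when built from the other tables, RMI2, EXO1 and RAD51D were no longer called, which left 2 rises, and RAD51C was no longer called among the falls. BRCA1 was at -0.06 ± 0.17, with implied levels of 3714 and 3554 normalized counts, and RAD54L at -0.03 ± 0.20 in the authors' deposited table. The 95% interval for BRCA1, -0.40 to 0.27, leaves out a change of the size seen with the hairpin alone. G2/M genes fell in 21 of 30 cases in this deposited table (median -0.72) and DNA replication genes in 10 of 38, with 1 higher (median -0.04).

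Side by side, and from deposited tables that share control libraries, the members show several patterns. BRCA1 was at -1.40 with the hairpin, 0.78 with the drug and -0.06 with both in the authors' deposited tables. FANCE was at -1.57, -0.70 and -1.26 in the same order in the authors' deposited tables, the member that fell in each of them. BRIP1 was at -0.04, 1.37 and 0.80, and PSMC3IP at -1.29, 1.54 and 0.71, in the authors' deposited tables. SLX4 was at -0.88, 0.35 and -0.70 and FANCD2 at -1.43, 0.25 and -0.67 in the authors' deposited tables. NBN stayed between -0.23 and 0.15 and FAN1 between -0.31 and 0.06 over the 4 deposited tables, and neither passed in any of them.

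Another 45 genes of the pathway, such as RPA subunits, accessory core subunits, the BRCA1-A complex and regulators of recombination, were measured beside the members. In untreated cells 23 fell and 2 rose with the hairpin (median -0.46) in the authors' deposited table, the lowest being MND1, the partner of PSMC3IP, at -1.35 ± 0.18 and USP1, which removes ubiquitin from FANCD2, at -1.34 ± 0.15. The rises in that deposited table were BRCC3, a deubiquitinase of the BRCA1-A complex, at 0.73 ± 0.18 and EME2 at 0.67 ± 0.22. Under gemcitabine 24 fell and 4 rose (median -0.33) in the authors' deposited table, from SWSAP1 at -1.30 ± 0.35 and the helicase gene MCM8 at -0.97 ± 0.13 to WDR48, the cofactor of USP1, at 0.41 ± 0.10 and ABRAXAS1, the scaffold of the BRCA1-A complex, at 0.79 ± 0.10. Gemcitabine in shCTRL cells went with 15 rises and 7 falls (median 0.24) in the authors' deposited table, with the single-strand binding gene RPA2 at 1.17 ± 0.15, the ligase gene RFWD3 at 1.10 ± 0.15, WRN at -0.62 ± 0.19 and ABRAXAS1 at -1.30 ± 0.15.

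With both changes 13 of these 45 fell and 5 rose (median -0.22) in the authors' deposited table, among them FAAP100, which binds FANCB and FANCL, at -1.34 ± 0.22, SWSAP1 at -1.06 ± 0.39, BRCC3 at 0.64 ± 0.20 and RFWD3 at 0.70 ± 0.16. The derived gemcitabine change in shE4F1 cells passed upward in 4 of them, the highest FAAP24 and MCM8, both at 1.32. The difference between the knockdown effects passed in ABRAXAS1 (0.90 ± 0.18) and USP1 (0.65 ± 0.20), by the normal test with Benjamini-Hochberg adjustment; none passed downward, where 1 (ERCC4) had an unadjusted p under 0.05. End-joining genes, which serve the competing route of break repair, fell in 8 of 16 cases untreated and in 7 under gemcitabine, with 0 and 1 higher (medians -0.45 and -0.30), in the authors' deposited tables. Gemcitabine in shCTRL cells went with 2 higher and 2 lower of the same 16 (median -0.11), and both changes together with 8 lower and 1 higher (median -0.48), in the authors' deposited tables. In the derived gemcitabine change of shE4F1 cells 1 of the 16 was higher and none lower (median 0.06).

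**Figure D4:**
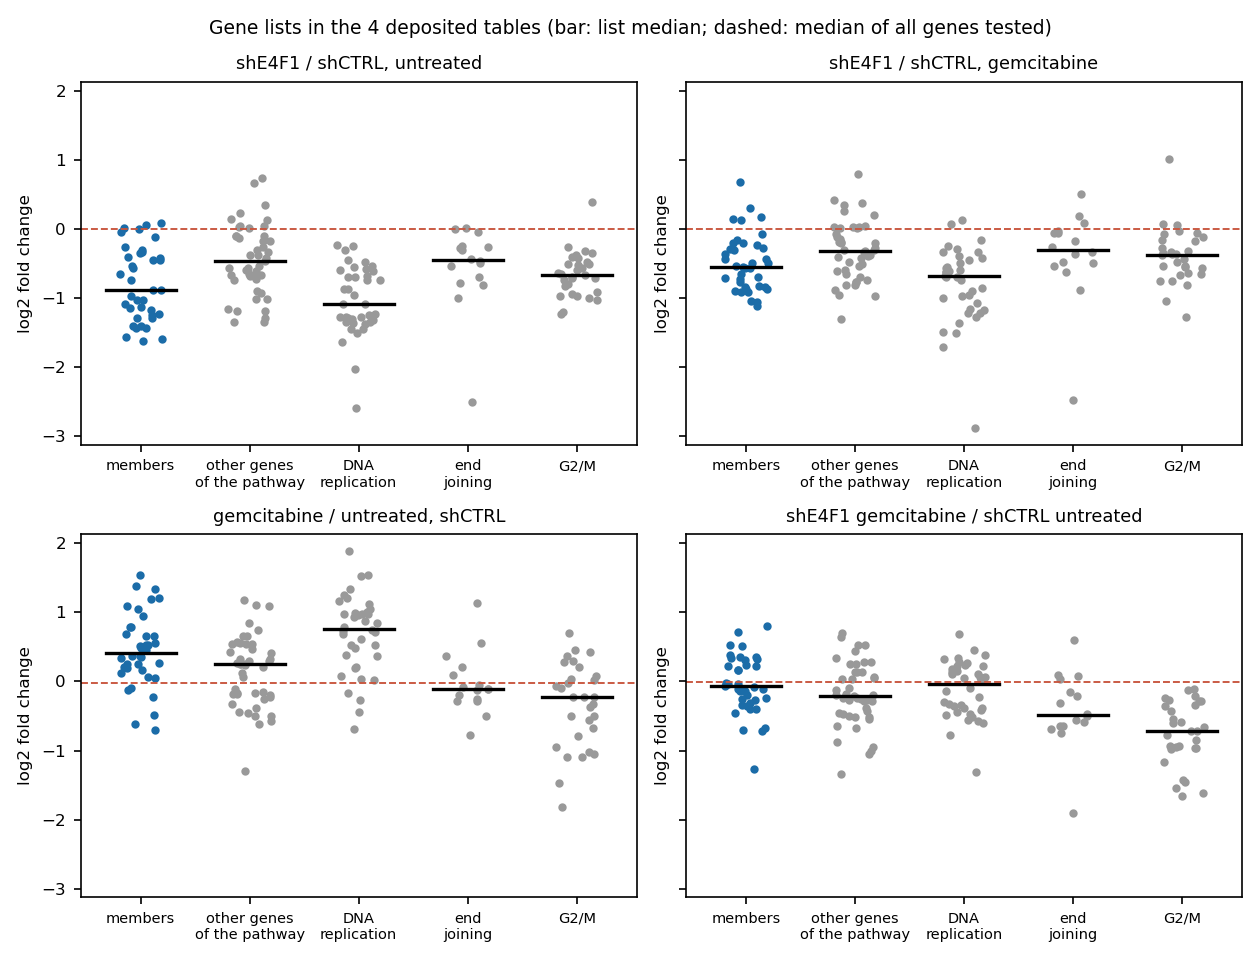
log2 fold changes of the 38 members (blue) and of 4 other gene lists (grey) in the authors' 4 deposited tables; each point is a gene, black bars are list medians and the dashed line is the median of all genes tested. The members' median is -0.89 with the hairpin untreated, -0.54 with it under gemcitabine, 0.41 with gemcitabine in shCTRL cells and -0.07 with both; the DNA replication medians are -1.09, -0.69, 0.76 and -0.04.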

How the data were processed

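All values rest on 4 comparison tables that the authors deposited, each over 6 libraries. Per the file headers, each holds a mean of normalized counts (a signal scaled by the authors' size factors), a log2 fold change with its SE, a Wald score, and raw and Benjamini-Hochberg adjusted p-values, from the authors' DESeq2. Per the submitters' processing notes, the genome build was GRCh38.p7 and the tools named were TopHat2 2.1.1, Bowtie2 2.2.9, HTSeq 0.9.0, R 3.4.0, DESeq2 1.14.1, FastQC and bcl2fastq. Not given in the sources used here are the annotation release, the strand setting, filters and the design formula. A count table was not used because the names of its 12 columns match no label, so depth per library is unknown here and precision is given by the SE.

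The gemcitabine effect in shE4F1 cells and the difference between knockdown effects were derived as differences of deposited log2 fold changes, with SEs from summed variances, a two-sided normal test and Benjamini-Hochberg adjustment over all genes in both tables. This used Python 3.11.15, numpy 2.4.6, pandas 2.3.3 and scipy 1.17.1. For every member the knockdown effect under gemcitabine plus the drug effect in shCTRL cells equals the combined change within 0.0421 (log2). The tables were normalized separately: implied shCTRL untreated levels were a median 1.17 times as high in the gemcitabine table and 1.08 times as high in the combined table as in the untreated one, so levels are compared within a table.

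The members and lists were chosen with earlier results of these data known. All 38 members could be named. For each role and comparison the called members with the lowest and highest change were given in full. The other pathway genes were given by counts, median and the 2 lowest and 2 highest called, with TOP3A added beside its partners. Replication, end-joining and G2/M genes were given by counts and median. Alternatives were a threshold of 0.01, a mean of 50 or more, no filter on low means, removal of the shared control variance (chosen after the data were seen), centring each table on its median, and building a comparison from the other tables.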

Additional observations from a re-analysis of the deposited data

Results flagged for a closer look

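In 8 of 38 members the difference in knockdown effect between untreated and gemcitabine-treated cells passed, all upward. This was the normal test of the difference derived from the authors' deposited tables with Benjamini-Hochberg adjustment. Of all 20923 genes tested, 2.81% passed upward and 2.63% downward. Each value is the log2 change under gemcitabine minus that without it. Among strand-exchange and resection genes these were RAD54L at 0.86 (adjusted p = 0.0158), XRCC3 at 0.75 (adjusted p = 0.0175) and EXO1 at 0.73 (adjusted p = 0.0183). Among resolution genes RMI2 was at 1.15 (adjusted p = 0.000507) and EME1 at 0.76 (adjusted p = 0.0211). In the Fanconi core FANCE was at 1.02 (adjusted p = 0.000129), FANCF at 0.60 (adjusted p = 0.0360) and FANCG at 0.56 (adjusted p = 0.0474). FANCF is the exception in kind: it was at 0.08 untreated and rose under gemcitabine, while the other 7 fell untreated. Of 38 DNA replication genes 6 passed upward as well. Built from the other comparisons, with larger summed SEs, 7 of the 8 members lost the call and FANCE kept it. At a threshold of 0.01, 6 lost it, and RMI2 and FANCE kept it.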

How the results depend on the processing

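No paired analysis was possible because no table used here gives values per library; for the same reason leaving out a replicate and the replicate block were not run. Precision is limited by the SE of each deposited table. Over 1064 alternative values of single members, 976 kept direction and side of the threshold, 56 lost a call, 27 gained one and 5 changed sign. Those 5 were uncalled and changed under centring, which shifted the tables by -0.06 to 0.01: in the untreated knockdown NBN came to 0.049 and BRIP1 to 0.0055, and with both changes PALB2 came to 0.016, RAD54L to 0.023 and FAN1 to 0.029. Falls in the untreated knockdown stayed between 23 and 27 of 38, and rises with gemcitabine in shCTRL cells between 12 and 20. At an adjusted p under 0.01, 2 members rose with both changes and 2 passed in the difference between knockdown effects. With a mean of 50 or more, 2 members rose in the knockdown under gemcitabine. Built from the other tables, whose summed SEs are larger by construction, 16 members fell in the knockdown under gemcitabine, 2 rose with both changes and 1 passed in the difference. With the shared variance removed, 28 rose with gemcitabine in shE4F1 cells.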
